A study of Mus musculus with 4 samples.

Results

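Interferon-stimulated genes, apart from the interferon-inducible GTPases and the MHC genes, were followed in mouse mammary tumours with and without a block of AP-1. The group was a fixed list of 39 gene symbols. A gene counted as measured if at least 1 probe set of the array carried its symbol alone, and its brightest probe set stood for it. By this rule 37 of the 39 genes were measured, of 18193 genes in all, and all 37 lay above the limit for dim probe sets, so none was lost to it. Isg15 and Ifi44 had no probe set named with their symbol alone and were not analysed here. Gene expression was measured on Affymetrix mouse genome arrays, 1 array for each of 4 tumours that grew in nude mice from transplanted Eph4 cells, a mammary epithelial line of the mouse. In the 2 EN-TAM67 tumours (labelled Eph_EN_DN) the cells were transduced with ETV6-NTRK3, a fusion oncogene of the ETV6 transcription factor and the NTRK3 receptor kinase, and co-expressed TAM67, a c-Jun mutant that acts as a dominant negative and is used to block AP-1. In the 2 EN tumours (labelled Eph_EN) the cells carried ETV6-NTRK3 alone, so the fusion oncogene and the nude host were common to both groups. The study asked what AP-1 contributes to tumours driven by the fusion. The age of the mice, the time of growth and whether tumours of a group came from separate mice were not stated in the labels, so the spread between tumours of a group may be technical.

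Cells sense foreign or misplaced nucleic acid through cytosolic receptors and answer with interferons. Type I interferons act through the receptor Ifnar1 and Ifnar2, which leads STAT2 and IRF9 to the interferon-stimulated response element (ISRE) of target genes, and interferon gamma acts through Ifngr1 and Ifngr2 and on genes with gamma-activated sites (GAS). The induced genes block viral replication at many steps, and some of them, such as IRF7, feed the response forward while others, such as USP18 and SOCS1, restrain it. Nude mice lack a thymus and so most T cells, but keep macrophages, natural killer cells and B cells.

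Each difference below subtracts the EN mean from the EN-TAM67 mean of log2(intensity + 16), which understates changes of dim genes, and adjusted p-values are from limma over all genes tested (13331 in number), with n = 2 tumours in each group. Array medians were 38.1 and 40.8 intensity units in the EN-TAM67 tumours and 35.6 and 35.9 in the EN tumours. The Gapdh 3' to 5' ratio was 1.17 and 1.11 in EN-TAM67 tumours against 0.938 and 1.04 in EN tumours, and the 18S ribosomal RNA controls averaged 6.76 and 7.43 in EN-TAM67 against 5.43 and 6.40 in EN tumours on the log2 scale. The epithelial marker Krt8 read 1596 and 1469.6 units in EN-TAM67 and 2048 and 2017 in EN tumours, while Krt19 was too dim to be tested. Whether the array's probe sets read the TAM67 or fusion transcripts was not stated in the labels, so they check neither construct. The part of RNA quality in the values below was not tested.

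Irf7, Oasl2 and Ifitm3 fell in EN-TAM67 tumours, to 0.448 to 0.525 of their EN level on this scale. These were 3 of 37 interferon-stimulated genes at an adjusted p under 0.05, whereas 0.42% of all genes tested were lower at that threshold. No member was higher (0 at an adjusted p and 0 at an unadjusted p under 0.05, by limma), where 0.135% and 4.86% of all genes were higher. At an unadjusted p under 0.05, 15 of the 37 were lower, against 4.94% of all genes. Over all genes 56 were lower and 18 higher at an adjusted p under 0.05, or 48 lower and 7 higher with each array centred on its median. A negative difference was measured for 34 of 37 members, against 47.8% of all genes, and the median difference was -0.35, against 0.019 for all genes. In 21 of the 37 both EN-TAM67 tumours lay below both EN tumours, as they did in 20% of all genes. The difference went beyond -1 in 3 members (Irf7, Usp18 and Oasl2), against 0.713% of all genes. Both EN-TAM67 tumours lay above both EN tumours in 0 of the 37, against 20.2% of all genes. In these bulk samples, fewer cells of a type and less RNA per cell cannot be told apart.

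**Figure D1:**
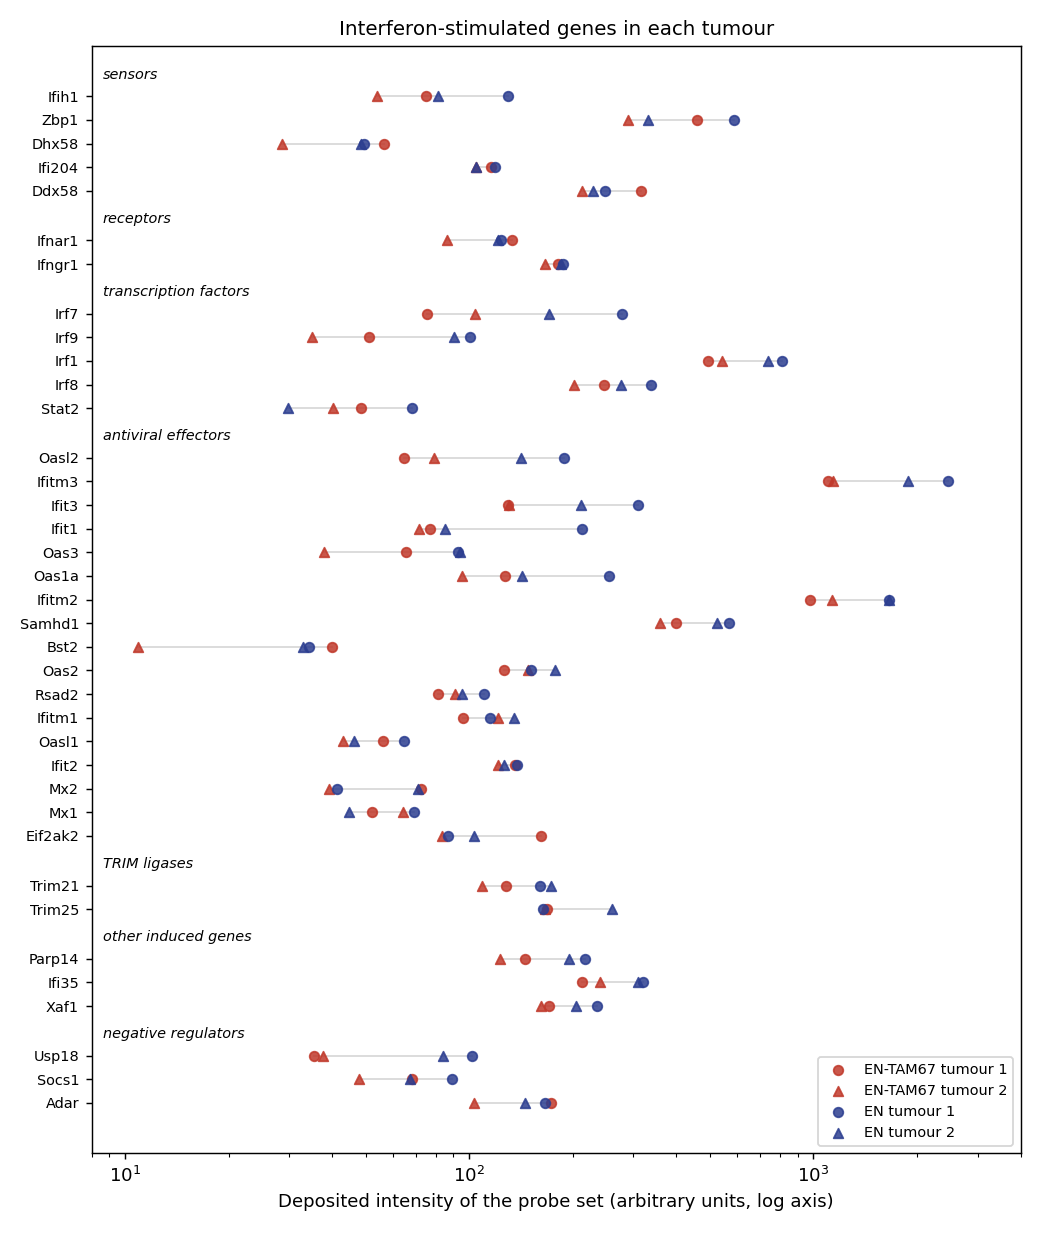
Deposited intensity (arbitrary units, log axis) of the 37 measured interferon-stimulated genes, grouped by role, with 1 symbol for each tumour; red marks the EN-TAM67 tumours and blue the EN tumours, circles tumour 1 and triangles tumour 2. In 21 genes both red symbols lie left of both blue ones, for example Irf7, Oasl2, Ifitm3 and Usp18, and in 16 the colours overlap, for example Mx1, Mx2 and Ifit2.

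Irf7, the transcription factor that amplifies type I interferon production, gave 75.6 and 104 units in EN-TAM67 tumours and 278 and 170.4 in the EN tumours. Both EN-TAM67 tumours were below both EN tumours, and EN tumour 1 was the highest of the 4. Irf7 averaged 89.9 ± 20.3 units in EN-TAM67 and 224 ± 76.2 in EN tumours (SD), a difference of -1.16 ± 0.25 (SE, adjusted p = 0.0449). Oasl2, an oligoadenylate synthetase-like protein, read 64.6 and 78.7 units in EN-TAM67 against 188 and 141 in EN tumours, again without overlap. Oasl2 averaged 71.7 ± 9.97 units in EN-TAM67 and 165 ± 33.1 in EN tumours (SD), a difference of -1.04 ± 0.22 (SE, adjusted p = 0.0449). Ifitm3, a membrane protein that blocks virus entry by fusion, read 1106 and 1139.9 units in EN-TAM67 tumours and 2464 and 1878 in EN tumours. The EN-TAM67 values of Ifitm3 lay close together and below both EN values, and the difference was -0.93 ± 0.19 (SE, adjusted p = 0.0411).

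None of these 3 calls held with any 1 of EN tumour 1, EN-TAM67 tumour 1 or EN-TAM67 tumour 2 left out, where the lone tumour was taken to vary as the group of 2 did. Without EN tumour 1 the difference was -0.83 for Irf7 (adjusted p = 0.118), -0.85 for Oasl2 (adjusted p = 0.113) and -0.73 for Ifitm3 (adjusted p = 0.113), all in limma. Leaving out EN-TAM67 tumour 1 gave -0.96, -0.92 and -0.91 for the same genes, and leaving out EN-TAM67 tumour 2 gave -1.35, -1.15 and -0.95. Without EN tumour 2, 6 members were lower at an adjusted p under 0.05 (Ifit1, Ifit3, Ifitm3, Irf7, Oas1a and Oasl2) and 0 higher, against 0.788% of all genes lower and 0.675% higher. In that fit Irf7 was at -1.49, Oasl2 at -1.22 and Ifitm3 at -1.12.

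Usp18, the protease that removes ISG15 and damps signalling at the type I receptor, had the second most negative difference of the group. It read 35.5 and 37.5 units in EN-TAM67 tumours against 102 and 83.8 in EN tumours. The groups were apart, but the difference of -1.05 ± 0.24 did not pass (SE, limma adjusted p = 0.0676). Irf9, the DNA-binding subunit of the type I interferon complex, read 51.3 and 35.0 units in EN-TAM67 and 100.4 and 90.3 in EN tumours. The Irf9 difference was -0.93 ± 0.24 (SE, limma adjusted p = 0.125), and both EN-TAM67 values were again the lower ones. Without EN tumour 1 Usp18 stood at -0.93 and Irf9 at -0.86, close to their values over all 4 tumours.

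EN tumour 1 carried a large share of the difference in some members and little in others. Ifit1, a protein that binds foreign RNA ends, read 76.7 and 71.2 units in EN-TAM67 tumours against 213 and 84.9 in EN tumours. EN tumour 1 alone stood high there, and the difference went to -0.17 without it, against -0.76 over all 4 tumours. Oas1a, a synthetase of the 2-5A messenger that activates RNase L, read 127 and 94.97 units in EN-TAM67 and 255 and 143 in EN tumours. Its difference was -0.72, and -0.33 without EN tumour 1. Ifit3, a partner of IFIT1, read 129.7 and 130.5 units in EN-TAM67 against 309 and 211 in EN tumours, with a difference of -0.89 over all tumours and -0.64 without EN tumour 1. In contrast Oas3, another 2-5A synthetase, read 65.6 and 37.8 units in EN-TAM67 and 93.0 and 94.1 in EN tumours. The EN values of Oas3 nearly coincided, and its difference was -0.73 with and without EN tumour 1, but its EN-TAM67 values differed, and it was at -1.03 if EN-TAM67 tumour 1 was dropped and -0.42 if EN-TAM67 tumour 2 was. Ifitm2, a relative of Ifitm3, read 975 and 1135 units in EN-TAM67 and 1656 and 1656 in EN tumours, which gave -0.65 both ways. Probe sets of close relatives such as Ifitm2 and Ifitm3, or Oas1a and its neighbours, may read each other's transcripts, and this was not tested.

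Over the 37 members, EN tumour 1 was the highest of the 4 tumours in 24, against 19.4% of all genes, and EN-TAM67 tumour 2 was the lowest in 23, against 23.7% of all genes. EN tumour 1 lay above EN tumour 2 in 29 members, with a median gap of 0.14 on the log2 scale, where the median gap over all genes was -0.063. Without EN tumour 1, 29 of 37 differences were negative with a median of -0.29, against 52% negative and a median of -0.020 for all genes. No member passed limma at an adjusted p under 0.05 in that fit, where 0.66% of all genes were lower and 0.638% higher. At an unadjusted p under 0.05, 10 members were lower and 0 higher, against 6.18% of all genes lower. The members with the most negative values in that fit were Usp18 (-0.93), Irf9 (-0.86), Oasl2 (-0.85) and Irf7 (-0.83), and the most positive was Stat2 (0.39). The median over the members was -0.54 if EN-TAM67 tumour 1 was dropped (36 of 37 negative) and -0.33 if EN-TAM67 tumour 2 was (25 of 37 negative).

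**Figure D2:**
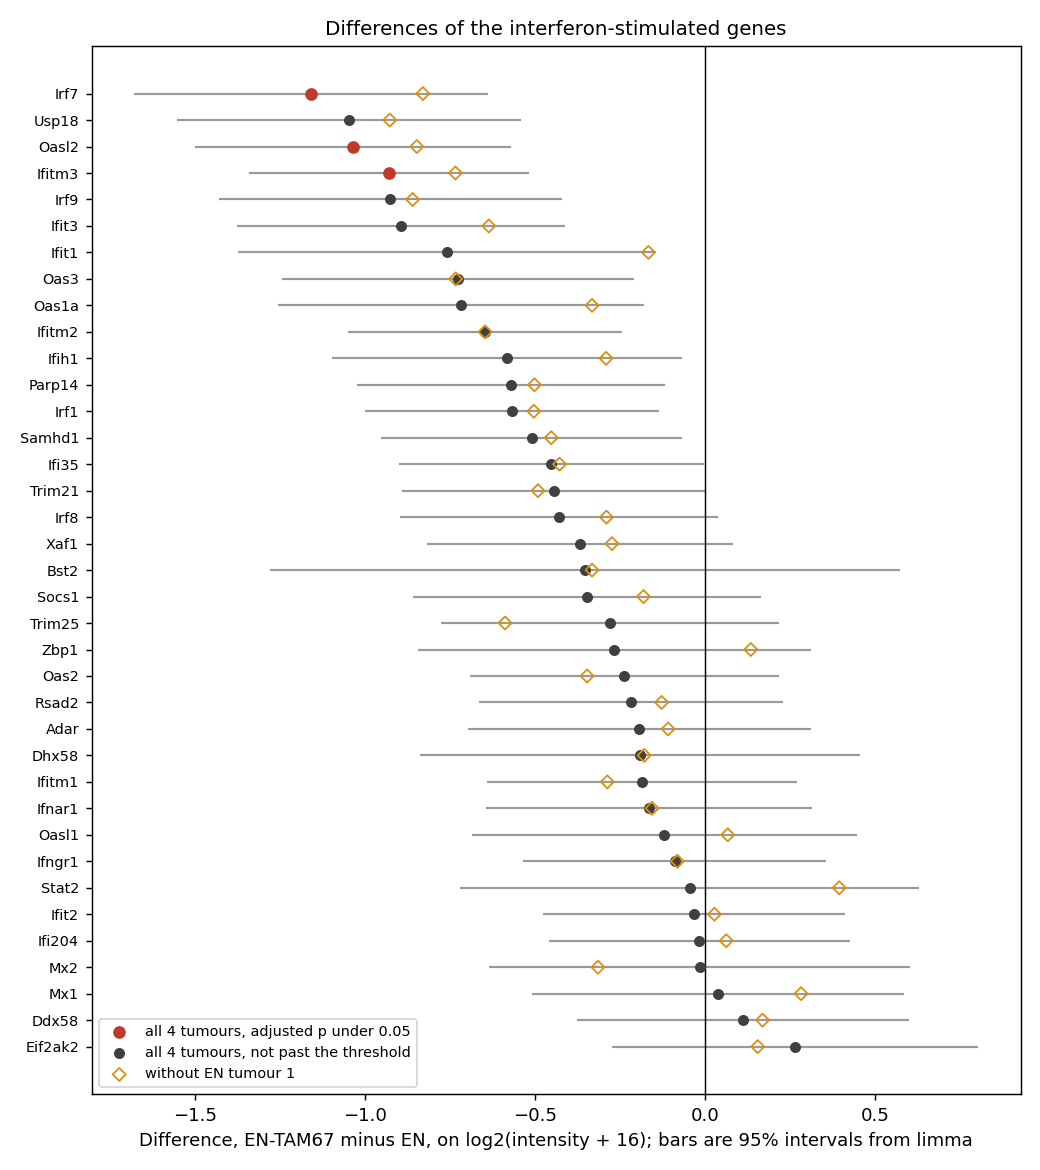
Difference of each of the 37 genes (EN-TAM67 minus EN, log2(intensity + 16)) with its 95% interval from limma, ordered from the most negative; red points passed an adjusted p under 0.05, and open diamonds give the difference without EN tumour 1. Irf7, Oasl2 and Ifitm3 are the 3 red points, and the diamonds of Ifit1 (-0.17) and Oas1a (-0.33) lie far to the right of their points, while those of Oas3 and Ifitm2 lie on them.

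Promoters of the group were read to show which response elements its members carry. RefSeq windows from 250 bases before to 50 after the gene start (GRCm38.p6, gene strand) were found for 31 of the 39 listed genes. The ISRE core was searched as GAAA, any 2 bases and GAAA again, the gamma-activated site as TTCNNNGAA and the AP-1 site as TGANTCA. All were searched on both strands, with overlapping matches counted. N stands for any base, so TGATTCA counted as AP-1 letters beside TGACTCA and TGAGTCA. The ISRE core stood in 15 of the 31 genes (48.4%), against 3.99% of 27025 genes with a window. The gamma-activated site stood in 11 of 31 (35.5%), against 9.55% of all genes, and the AP-1 letters in 6 of 31 (19.4%), against 8.97%. Base composition was not matched, so these shares describe the windows only. Shown are the 4 members whose window holds both an ISRE core and the AP-1 letters, in all of which the groups were apart. After them come the 2 with an ISRE core whose difference over all 4 tumours was positive. The choice was made with the values in view. Ifih1, Ifit1, Ifitm2, Oas1a and Trim21 hold an ISRE core without AP-1 letters and also had groups apart, and they are not shown. Capitals mark ISRE cores and AP-1 letters.
Ifitm3, chr7:141010695-141010994, minus strand: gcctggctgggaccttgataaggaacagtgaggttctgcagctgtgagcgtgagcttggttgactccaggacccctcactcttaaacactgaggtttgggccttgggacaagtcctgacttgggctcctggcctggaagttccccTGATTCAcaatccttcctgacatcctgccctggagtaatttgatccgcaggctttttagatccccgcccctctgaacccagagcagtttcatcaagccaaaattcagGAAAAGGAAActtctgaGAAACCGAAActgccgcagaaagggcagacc
Ifit3, chr19:34583279-34583578, plus strand: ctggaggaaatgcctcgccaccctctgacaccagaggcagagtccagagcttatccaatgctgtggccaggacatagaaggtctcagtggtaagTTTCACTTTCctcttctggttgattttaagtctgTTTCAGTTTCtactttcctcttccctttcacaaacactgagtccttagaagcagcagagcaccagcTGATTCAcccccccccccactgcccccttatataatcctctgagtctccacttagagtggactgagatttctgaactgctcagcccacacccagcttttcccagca
Oas3, chr5:120777610-120777909, minus strand: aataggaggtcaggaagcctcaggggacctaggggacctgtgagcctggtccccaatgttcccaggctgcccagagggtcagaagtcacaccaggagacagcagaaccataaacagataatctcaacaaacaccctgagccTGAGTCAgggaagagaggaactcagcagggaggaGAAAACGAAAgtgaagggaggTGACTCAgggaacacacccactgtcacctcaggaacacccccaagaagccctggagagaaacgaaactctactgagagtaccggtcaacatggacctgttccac
Rsad2, chr12:26456403-26456702, minus strand: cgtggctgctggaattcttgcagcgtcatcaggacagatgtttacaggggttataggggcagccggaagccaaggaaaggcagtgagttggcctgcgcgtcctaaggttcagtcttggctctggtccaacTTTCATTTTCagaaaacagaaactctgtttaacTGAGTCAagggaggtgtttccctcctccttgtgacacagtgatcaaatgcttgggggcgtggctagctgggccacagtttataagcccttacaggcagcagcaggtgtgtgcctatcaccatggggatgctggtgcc
Ddx58, chr4:40239776-40240075, minus strand: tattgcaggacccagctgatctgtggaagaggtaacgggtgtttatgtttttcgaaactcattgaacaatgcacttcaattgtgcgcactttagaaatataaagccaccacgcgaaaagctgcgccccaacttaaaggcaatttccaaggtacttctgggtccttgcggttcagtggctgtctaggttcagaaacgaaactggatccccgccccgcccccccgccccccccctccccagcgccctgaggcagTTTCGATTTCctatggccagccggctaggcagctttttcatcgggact
Eif2ak2, chr17:78882523-78882822, minus strand: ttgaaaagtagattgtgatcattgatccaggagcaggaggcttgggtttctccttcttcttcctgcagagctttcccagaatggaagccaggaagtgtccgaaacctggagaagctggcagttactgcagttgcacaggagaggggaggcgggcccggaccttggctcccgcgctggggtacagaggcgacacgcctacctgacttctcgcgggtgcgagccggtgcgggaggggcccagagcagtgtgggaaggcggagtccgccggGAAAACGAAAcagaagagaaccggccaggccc

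Ifitm3 holds 2 ISRE cores beside the gene start and 1 AP-1 match upstream of them, and 1 gamma-activated site match overlaps the second core. Ifit3 holds 2 ISRE cores, read on the opposite strand, and 1 AP-1 match. The AP-1 match of both Ifitm3 and Ifit3 reads TGATTCA. Oas3 has its ISRE core between 2 AP-1 matches, and Rsad2 has 1 ISRE core on the opposite strand and 1 AP-1 match after it. In Ddx58 and Eif2ak2 a single ISRE core lies just after the gene start and no AP-1 letters were found. Among measured members with a window, the ISRE core was present in 9 of 18 whose groups were apart and in 5 of 11 whose groups overlapped. The AP-1 letters were present in 6 of 18 whose groups were apart (Ifi35, Ifit3, Ifitm3, Oas3, Rsad2 and Xaf1) and in 0 of 11 whose groups overlapped. This split was made after the values were seen, on the brightest probe sets, and is a description. Dimmer probe sets overlapped for Ifi35 (-0.38 and 0.053), Xaf1 (0.10) and Rsad2 (-0.045), while another of Rsad2 was apart (-0.65). The windows of Irf7, Irf9 and Oasl2 held none of the 3 motifs, which says only that these letters were not in them.

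By role, ligands and receptors came first in the pathway. Ifnb1 and Ifng, the genes of interferon beta and gamma, were too dim to be tested, at 14.9 and 1.82 (Ifnb1) and 13.2 and 1.94 units (Ifng) in EN-TAM67 tumours, against 12.5 and 31.0 (Ifnb1) and 9.88 and 24.8 (Ifng) in EN tumours. Of the interferon alpha genes on the pathway list, Ifna4 and Ifna2 were tested and neither passed. Ifna4 read 50.7 and 61.0 units in EN-TAM67 and 64.3 and 3.04 in EN tumours, a difference of 0.87 with EN tumour 2 alone low (limma adjusted p = 0.583). Ifna2 read 33.0 and 22.0 units in EN-TAM67 and 33.1 and 38.7 in EN tumours, a difference of -0.26 (limma adjusted p = 0.869). Ifnar1, a type I receptor chain, read 133 and 86.1 units in EN-TAM67 and 123 and 122 in EN tumours, with overlap and a difference of -0.17. Ifngr1, a gamma receptor chain, read 182 and 166 units in EN-TAM67 and 187 and 185 in EN tumours, a difference of -0.089. Their partner chains, which are not on the list of 39, were at -0.39 (Ifnar2) and -0.65 (Ifngr2), neither past the threshold (limma adjusted p = 0.582 and 0.335).

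Of the 5 nucleic acid sensors and sensor regulators, 4 had negative differences and 0 passed (1 at an unadjusted p under 0.05 by limma, Ifih1). Over all genes 47.8% were negative, 0.42% lower at the adjusted threshold and 4.94% at the unadjusted one. Ifih1 (MDA5), a sensor of long double-stranded RNA, read 74.7 and 53.9 units in EN-TAM67 and 129.7 and 81.4 in EN tumours, a difference of -0.58 that was -0.29 without EN tumour 1. Ddx58 (RIG-I), which senses RNA with a 5' triphosphate, was one of only 3 members with a positive difference, at 316 and 213 units in EN-TAM67 and 249 and 229 in EN tumours (0.11). EN-TAM67 tumour 1 was the highest and EN-TAM67 tumour 2 the lowest of the 4 for Ddx58, and 2 dimmer Ddx58 probe sets were at 0.72 and 0.078. Without EN-TAM67 tumour 1 the Ddx58 difference was -0.16. Dhx58 (LGP2), a regulator of both, stood at -0.19, and Ifi204, a DNA sensor, at -0.017. Zbp1, a sensor of left-handed nucleic acid, read 459 and 289 units in EN-TAM67 and 589 and 331 in EN tumours. The Zbp1 difference of -0.27 became 0.13 if EN tumour 1 was dropped and 0.052 if EN-TAM67 tumour 2 was.

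All 5 transcription factors had negative differences, with a median of -0.57, and 1 passed (Irf7). Over all genes 47.8% were negative and 0.42% lower at the same threshold, and 5 genes are few to set beside these shares. Irf1, a factor induced by interferon gamma, read 495 and 541 units in EN-TAM67 and 812 and 741 in EN tumours. The groups were well apart for Irf1, at -0.57 ± 0.20 (SE, limma adjusted p = 0.35). Irf8, a factor of myeloid cells, read 246 and 201 units in EN-TAM67 and 338 and 276 in EN tumours, a difference of -0.43, and its second probe set stood at -0.85. Stat2, the partner of IRF9, showed no such separation. It read 48.5 and 40.1 units in EN-TAM67 and 68.2 and 29.8 in EN tumours, so EN tumours were both the highest and the lowest. Its difference of -0.046 turned to 0.39 without EN tumour 1. A dimmer Stat2 probe set read 42.2 and 9.92 units in EN-TAM67 and 59.0 and 33.5 in EN tumours (-0.65), also with overlap.

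Among the 17 antiviral effectors, 15 had negative differences, 2 fell (Oasl2 and Ifitm3) and 10 had EN-TAM67 tumours below EN tumours without overlap, against 47.8% negative, 0.42% lower at the same threshold and 20% without overlap over all genes. Samhd1, which removes the nucleotides needed for reverse transcription, read 400.2 and 359 units in EN-TAM67 and 569 and 524 in EN tumours, a difference of -0.51. Oas2 stood at -0.24 and Rsad2 (viperin), an enzyme that makes a chain-terminating nucleotide, at -0.22, both with groups apart and 95% intervals that span 0. Rsad2 read 81.4 and 90.7 units in EN-TAM67 and 110.1 and 95.4 in EN tumours, with a narrow gap between the groups. Ifitm1 was at -0.19 and Oasl1, which represses translation of Irf7, at -0.12, with overlap. Bst2 (tetherin), which holds virions at the cell surface, read 39.8 and 10.9 units in EN-TAM67 and 34.3 and 32.8 in EN tumours, a difference of -0.35 with EN-TAM67 tumour 2 alone low.

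Ifit2, Mx1, Mx2 and Eif2ak2 stood near 0 or above it. Ifit2 read 136 and 121 units in EN-TAM67 and 138 and 126 in EN tumours, a difference of -0.032 with an interval of -0.48 to 0.41. Mx1, a dynamin-like GTPase that the list holds beside Mx2, read 52.1 and 64.3 units in EN-TAM67 and 69.2 and 44.8 in EN tumours, with EN tumours at both ends. The Mx1 difference was 0.039, but -0.031 with quantile normalization and -0.059 with each array centred on its median. Mx2 read 72.4 and 39.1 units in EN-TAM67 and 41.4 and 70.8 in EN tumours, with 1 high and 1 low tumour in each group. Its difference of -0.016 became -0.31 when EN tumour 1 was dropped and 0.28 when EN tumour 2 was. Eif2ak2 (PKR), a kinase that stops translation, read 162 and 83.5 units in EN-TAM67 and 86.6 and 103 in EN tumours. EN-TAM67 tumour 1 alone stood high for Eif2ak2, and its difference of 0.26 became -0.15 without that tumour.

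The remaining members had negative differences that did not pass the threshold. Parp14, an ADP-ribosyltransferase, read 145 and 123 units in EN-TAM67 and 217 and 196 in EN tumours (-0.57), and Ifi35 213 and 239 in EN-TAM67 and 320.1 and 309 in EN tumours (-0.45). Xaf1, a factor linked to cell death, stood at -0.37, and all 3 had groups that were apart. Trim21, a ubiquitin ligase that binds antibodies inside cells, was at -0.44 with groups apart, and Trim25, the ligase that acts on RIG-I, at -0.28 with overlap and EN tumour 2 alone high (259.7 units). Socs1, the feedback inhibitor of JAK kinases, stood at -0.35, and Adar, which edits double-stranded RNA, at -0.19, both with overlap. Without EN-TAM67 tumour 2 Adar was at 0.14, and Trim25 was at 0.027 without EN tumour 2. Socs1 read 68.4 and 47.8 units in EN-TAM67 and 88.8 and 67.2 in EN tumours, and Adar 172 and 103 in EN-TAM67 and 166 and 146 in EN tumours. Of the 37 members, 15 had more than 1 probe set, and 6 of the 19 further probe sets kept had the opposite sign to the brightest one. These 6 belonged to Samhd1 (0.058 and 0.35), Adar (0.11), Xaf1 (0.10), Ifi35 (0.053) and Eif2ak2 (-0.0060). With a gene's probe sets averaged, Xaf1 was at -0.13, Ifi35 at -0.26 and Samhd1 at -0.44, while Irf8 was at -0.64.

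**Figure D3:**
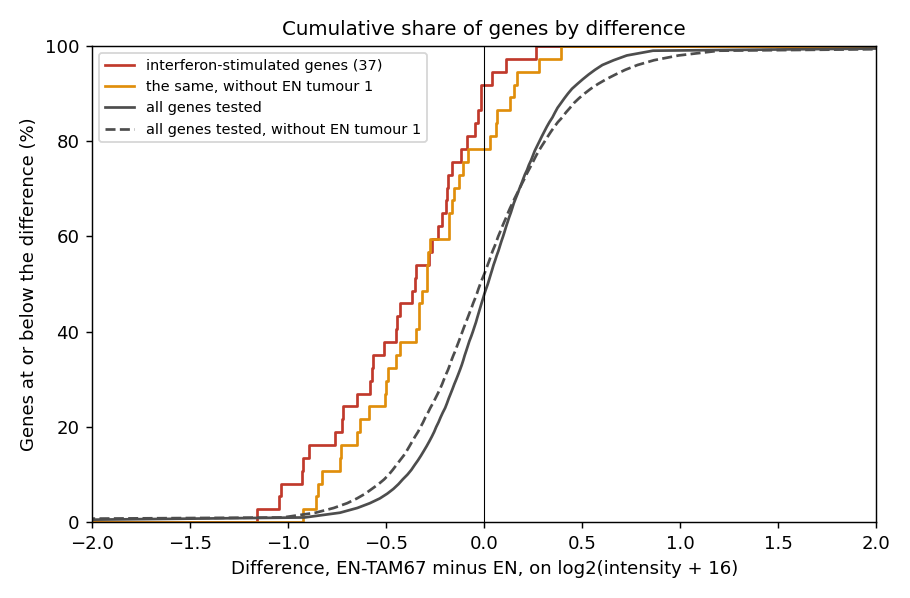
Cumulative share of genes (%) at or below a given difference (EN-TAM67 minus EN, log2(intensity + 16)) for the 37 interferon-stimulated genes and for all genes tested, with and without EN tumour 1. The red and orange steps of the members lie left of the grey curves over most of their range, with medians of -0.35 and -0.29 for the members and 0.019 and -0.020 for all genes.

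Other genes of the interferon pathway were counted from a general list of the pathway. Of 64 tested, 1 was lower (Lgals3bp) and 0 higher by limma, and at an unadjusted p under 0.05, 11 were lower and 2 higher. Over all genes tested, 0.42% were lower and 0.135% higher at the adjusted threshold, and 4.94% and 4.86% at the unadjusted one. The median of the 64 was -0.12, with 42 negative, against 47.8% of all genes. Both EN-TAM67 tumours lay below both EN tumours in 27 of the 64 and above them in 6, against 20% and 20.2% of all genes. Lgals3bp, a secreted glycoprotein, read 112 and 138 units in EN-TAM67 and 349 and 265 in EN tumours (-1.19 ± 0.22 SE, limma adjusted p = 0.0236). JAK kinases were at -0.092 (Jak1), 0.26 (Jak2) and -0.30 (Tyk2), with overlap for Jak1 and Tyk2 and EN-TAM67 above EN for Jak2, none past the threshold.

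Sums of marker genes differed between the groups for several cell types. Summed over 15 macrophage markers, levels were 14466 and 11612 units in EN-TAM67 tumours, below 20869 and 17555 in EN tumours. Of these markers 12 had negative differences and 7 had groups apart, with a median of -0.31. For comparison with each list, 47.8% of all genes tested were negative, and 20% had EN-TAM67 below EN tumours without overlap. The defining markers stood at -0.46 for Csf1r, -0.31 for Cd68 and -0.19 for Adgre1. By limma 0 of the 15 passed, and 5 were lower at an unadjusted p under 0.05, against 0.42% and 4.94% of all genes lower. Fibroblast markers summed to 17837 and 15691 units in EN-TAM67 against 20088 and 27004 in EN tumours (9 of 11 negative, median -0.50). Groups were apart with EN-TAM67 below in 8 of the 11 and above in 1 (Dcn). None of the 11 passed, and 7 were lower at an unadjusted p under 0.05 by limma, with Lum most negative (-1.07). The 10 endothelial markers summed to 491 and 597 units in EN-TAM67 against 679 and 911 in EN tumours (6 of 6 tested negative). Of these 6, 4 had groups apart, 0 passed and 3 were lower at an unadjusted p under 0.05 by limma. Pdgfra stood at -0.32, Dcn at 0.27 and Cdh5 at -0.74, while Pecam1 was too dim to be tested. For 11 epithelial markers the sums were 3214 and 3477 in EN-TAM67 and 3806 and 4045 in EN tumours, with 5 of 10 tested negative and a median of -0.025 (Epcam -0.20 and Krt8 -0.40). Sums of lymphocyte markers overlapped (467 and 525 in EN-TAM67, 616 and 481 in EN tumours). Of 6 tested, 3 were negative with groups apart (Prf1 -0.80, Cd4 -0.45 and Cd8a -0.31). Prf1 was dim, at 18.6 and 18.6 units in EN-TAM67 and 51.8 and 37.4 in EN tumours. Cd3e was at 0.44, also with groups apart, EN-TAM67 above EN tumours. Ncr1 was at 0.028 and Nkg7 at 0.0093, both with overlap. Cd3d, Cd3g, Cd79a, Cd79b and Ms4a1 were too dim to be tested. Sums for plasmacytoid dendritic cells, a main source of type I interferon, overlapped too (960.1 and 727 in EN-TAM67, 862 and 1065 in EN tumours). Tcf4 made most of them, at 785 and 519 in EN-TAM67 and 660 and 862 in EN tumours (-0.24). Siglech read 38.4 and 45.3 in EN-TAM67 and 20.5 and 30.2 in EN tumours (0.49). Of 5 tested, 3 were negative (Tlr7 -0.54, Ccr9 -0.48 and Tcf4). For 9 adipocyte markers the sums were 1720.5 and 6773 in EN-TAM67 against 850.4 and 519.6 in EN tumours. Where 0.135% of all genes were higher at an adjusted p under 0.05 by limma, 4 of the 7 tested rose. These were Car3 (3.36, limma adjusted p = 4.74e-04), a carbonic anhydrase, Fabp4 (2.47, limma adjusted p = 0.0217), a fatty acid binding protein, Adipoq (2.33, limma adjusted p = 0.0485), which encodes adiponectin, and Retn (1.59, limma adjusted p = 0.0481), which encodes resistin. For these 4 genes both EN-TAM67 tumours lay above both EN tumours, but EN-TAM67 tumour 2 stood far above EN-TAM67 tumour 1. The values of tumour 2 against tumour 1 were 1994 against 591 units for Car3 and 2825 against 559 for Fabp4. They were 824 against 128 for Adipoq and 265 against 81.2 for Retn. No marker of these lists was at 0 in any tumour. The part of these cell types in the interferon-stimulated genes was not tested.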

How the data were processed

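Total RNA of 4 tumours, 2 EN-TAM67 and 2 EN, was extracted with Trizol, cleaned on columns and labelled as biotinylated cRNA, per the labels' protocols. The authors deposited linear intensities, 45101 probe sets on each array. Their summary and scaling steps are not stated in the labels, and no depth applies, so the number of arrays limits the precision. Names came from the platform annotation (34945 with 1 symbol, 932 with several, 9160 with none) and were checked by Entrez ID against RefSeq (GRCm38.p6), with 0 changed. Control probe sets (64) and the dimmest 40% by mean log2 level were left out, leaving 27022. The brightest probe set of each of 13331 genes was tested with limma 3.58.1 in R 4.3.3 (two-sided, eBayes with a trend on intensity, p-values adjusted by Benjamini-Hochberg over all genes) on log2(intensity + 16), without a tumour-number term. The fit was tested on simulated data. All members were named; by rule, per-tumour values were given for those past the threshold, with the largest differences, the highest intensities or a positive difference, and those of other members were added with their values in view. From the other lists, genes past the threshold, receptor chains, kinases and defining markers were named; any others were picked with their values in view. The members and lists were chosen with earlier results of these data known. With arrays left out, probe sets stayed those of all 4 arrays. Alternatives to the filter, scaling, pseudocount, probe set choice, variance model, block and arrays were tried.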

Additional observations from a re-analysis of the deposited data

How the results depend on the processing

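The median difference of the members stayed negative in all 16 alternatives tried, from -0.54 to -0.24, and left the spread between tumours in 1 of them, at -0.54 without EN-TAM67 tumour 1. With single tumours left out it ran from -0.54 to -0.29. The count of 3 lower members was less stable. It was 2 with dim probe sets kept (Ifitm3 and Irf7), 1 with each array centred on its median and 1 with a pseudocount of 1. It was 0 with quantile normalization, with a gene's probe sets averaged, with every probe set tested separately, without the intensity trend and with the tumour number as a replicate block, and it ran from 0 to 6 with single tumours left out. No alternative called a member higher. Equal tumour numbers are not tied together in the labels, and same-numbered tumours deviated from their group means with a correlation of -0.065 over all genes tested, so the block has no basis in the design; under it 11 genes of the whole array remained past the threshold (8 lower and 3 higher) against 74 (56 and 18). Without the intensity trend 4 genes were lower and 1 higher. Of 589 values of single members under alternatives, 29 lost a call and 3 gained one. The count of 1 among other interferon pathway genes was 2 with dim probe sets kept, 0 with every probe set separately, without the trend and with the replicate block, and 0 to 5 with single tumours left out. Ranking probe sets by their linear mean, chosen after seeing the data, left the 3 calls (58 genes lower and 19 higher in all). The cause of these changes was not tested. Low signal limits Bst2, Stat2 and Dhx58, which lay among the dimmest 60% of probe sets, and may limit others. The brightest probe set of 30 members lay at or above the median intensity on every array. Usp18 did not, at 35.5 and 37.5 units in EN-TAM67 tumours with array medians of 38.1 and 40.8. Irf9 (35.0), Oas3 (37.8) and Mx2 (39.1) were below the median of 40.8 in EN-TAM67 tumour 2. The Usp18 difference was -1.32 with a pseudocount of 1 and -0.64 with a pseudocount of 64.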
